A study of Mus musculus with 16 samples.

Results

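The microRNAs (miRNAs) miR-10a and miR-10b (mmu-miR-10a and mmu-miR-10b on the array) were followed in mouse carotid arteries after wire injury. They were selected by name, whatever their signal, and are 2 of the 611 mouse miRNAs with probes on the array. The series measured 16 carotid arteries of female ApoE-/- mice on the C57BL/6 background that were fed a western-type diet. Loss of apolipoprotein E makes mice prone to atherosclerosis, and all 5 groups carried the deletion, so no artery came from a wild-type mouse. A wire passed along the vessel injures its inner lining, and the series followed the neointima, the inner layer of tissue that then grows. The groups were uninjured arteries (n = 3) and arteries at day 1 (n = 3), day 7 (n = 3), day 14 (n = 3) and day 28 (n = 4) after injury. The labels give an age of 8 weeks for the day 1 mice and 6 to 8 weeks for the others. From each artery 700 ng of total RNA was labelled with the dye Cy3 and measured on its own Agilent array for mouse miRNAs (Sanger v12 design).

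A miRNA guides a silencing complex to messenger RNAs that pair with its seed, a short stretch near its 5′ end, and lowers their output. The miR-10 genes lie inside the Hox clusters, the gene arrays that set position along the body axis, and adult cells tend to keep the Hox and miR-10 pattern of the place they came from. In cultured human endothelial cells miR-10a is known to restrain NF-κB signalling, in zebrafish miR-10 is known for a part in vessel growth through flt1, and in human breast cancer cells miR-10b is known to target HOXD10.

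The mature sequences are shown because they set what the arrays could tell apart. In RefSeq (build GRCm38.p6) miR-10a lies at chr11:96317186-96317208 on the plus strand, inside the span of Hoxb3 and between Hoxb5 and Hoxb4. miR-10b lies at chr2:74726074-74726096 on the plus strand, inside the spans of Hoxd3 and Hoxd4, with Hoxd8 and Hoxd1 as the next genes on either side. The table used gives gene spans only, so exon or intron is not stated. Capitals mark the seed, bases 2 to 8 from the 5′ end.
miR-10a: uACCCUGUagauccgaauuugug
miR-10b: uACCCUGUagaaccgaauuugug
The seed ACCCUGU was shared by these 2 and by no other of the 1738 mature mouse miRNAs in the table. Of their 23 bases 22 were identical, and the single difference was U12A (miR-10a base first, position counted from the 5′ end). In the next pair of lines the capital marks only that base.
miR-10a: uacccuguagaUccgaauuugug
miR-10b: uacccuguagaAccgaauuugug
Probe sequences were not used here, so how far RNA of each miRNA also bound the probes of the other was not measured. Array differences below are therefore those of the probes assigned to each miRNA.

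The miR-99 and miR-100 relatives carry a similar sequence with another seed, and are shown to set them against the pair. Capitals again mark bases 2 to 8.
miR-99a: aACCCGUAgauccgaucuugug
miR-99b: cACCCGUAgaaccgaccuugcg
miR-100: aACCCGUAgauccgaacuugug
The longest run that miR-100 shares with miR-10a is GUAGAUCCGAA (11 bases), and for miR-99a it is GUAGAUCCGA (10 bases). The passenger strands, which are cut from the other arm of each hairpin, are shown because their probes were not well above background on any array.
miR-10a*: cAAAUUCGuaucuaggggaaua
miR-10b*: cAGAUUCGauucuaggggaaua

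Each array was scaled to the 75th percentile of 395 mouse probes detected on all arrays, a signal that ran from 401 to 624 intensity units in uninjured arteries and from 484 to 1432 in injured ones. A level below is a scaled log2 signal, so 0 is that percentile, and a difference of 1 is a doubling. Levels of different probes share no scale and were not set against each other. In all, 321 miRNAs were tested with limma, and p-values were adjusted over all of them by the Benjamini-Hochberg method (threshold 0.05). The design names 3 to 4 animals per group, and p-values measure the spread between these samples. The arrays lay on 2 slides. Slide 1 held day 1, day 7 and replicates 1 and 2 of day 28, and slide 2 held the uninjured arteries, day 14 and the other day 28 replicates. Day 1 and day 7 thus differ from uninjured arteries in slide too, and the fit with slide as a block rests on the 4 day 28 arrays. That fit is given beside the differences of the members from uninjured arteries and beside their calls between days, but not beside every comparison. In bulk tissue, fewer cells of a type and less RNA per cell cannot be told apart.

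Of the 9 miRNAs of the Hox clusters on the array, only miR-10a and miR-10b were detected well enough to be tested. Both probes of each were well above background on 16 of 16 arrays. The probes for miR-10a* and miR-10b* were well above background on 0 arrays, as were those for miR-196a* and miR-615-5p. miR-196a and miR-196b, from the posterior parts of Hox clusters, were each well above background on 1 array, and miR-615-3p, from the Hoxc cluster, on 2 arrays. The 2 arrays with miR-615-3p were day 1 arrays. These 7 miRNAs passed no filter and were not tested, so no direction is given for them. A moderated F test over the 4 days together passed for both tested members. F was 9.69 for miR-10a (adjusted p = 0.00199) and 9.94 for miR-10b (adjusted p = 0.00178), where 61.4% of all tested miRNAs passed. F without uninjured replicate 3 was 8.79 (adjusted p = 0.00351) and 25.4 (adjusted p = 7.04e-05).

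miR-10a rose after injury and was highest at day 14 by its brighter probe in the fit without a slide term. With slide as a block its difference from uninjured arteries was largest at day 7, at 1.25. It was 0.96, 1.07 and 0.97 at day 1, day 14 and day 28. Its levels were -1.28, -1.46 and -1.16 in uninjured arteries, -1.08, -0.80 and -0.80 at day 1, -0.44, -0.74 and -0.63 at day 7, and -0.22, -0.16 and -0.31 at day 14. At day 28 they were -0.998, -0.77, -0.21 and -0.45. Each injured artery lay above each uninjured one, while the day 28 arteries spread over the range of day 1 to day 14. The group means were -1.30 ± 0.15, -0.90 ± 0.16, -0.60 ± 0.15, -0.23 ± 0.08 and -0.61 ± 0.35 (SD) for uninjured, day 1, day 7, day 14 and day 28.

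miR-10b was also higher late after injury, at day 14 and day 28. Its levels were -0.89, -0.99 and -0.01 in uninjured arteries, -0.58, -0.46 and -0.64 at day 1, -0.44, -0.54 and -0.33 at day 7, and 0.31, 0.63 and 0.23 at day 14. At day 28 they were 0.00, 0.19, 0.53 and 0.51. Uninjured replicate 3 stood apart from the other uninjured arteries, above each day 1 and day 7 artery and just below the lowest at day 28. The group means were -0.63 ± 0.54, -0.56 ± 0.09, -0.44 ± 0.10, 0.39 ± 0.21 and 0.31 ± 0.26 (SD) for uninjured, day 1, day 7, day 14 and day 28. That same uninjured artery was also the lowest of its group for the smooth muscle miRNAs miR-143 (1.75, against 2.57 and 2.58 in the others) and miR-145 (-2.53, against -1.21 and -1.37). Its neuronal miRNAs summed to a scaled signal of 2.01, against 0.77 and 0.99 in the others. Its erythroid sum was 16.3, against 40.4 and 42.9, and its fat-associated sum 8.37, against 11.5 and 10.6. Differences of the members from uninjured arteries are given with and without this artery. Day 28 replicate 2 stood apart in another way: its 6 epithelial miRNAs summed to a scaled signal of 2.03, against 0.024 to 0.075 on the other day 28 arrays, and its leukocyte miR-142-3p level was 1.52, against -0.30 to 0.26. Its miR-10a and miR-10b levels lay within those of the other day 28 arteries.

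**Figure D1:**
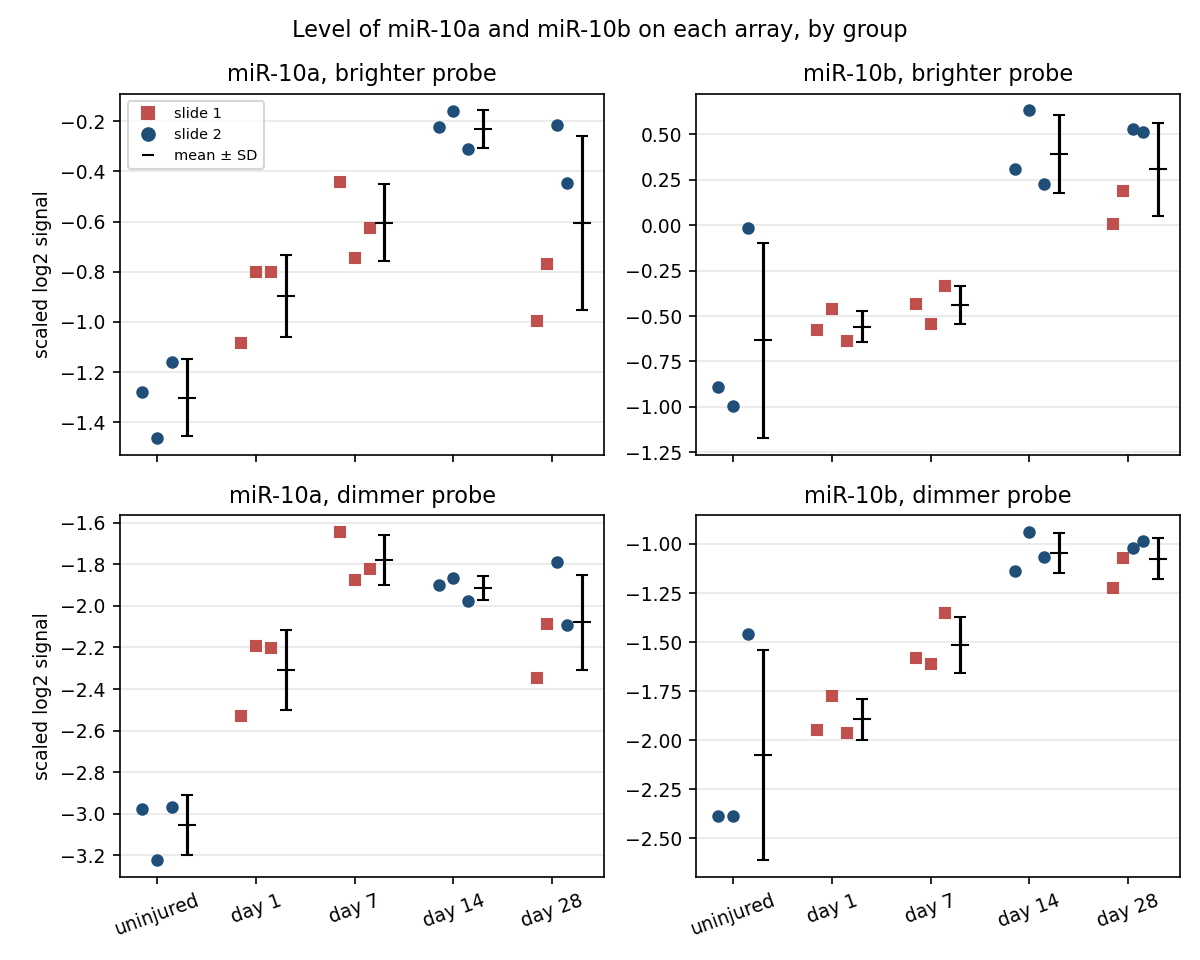
Scaled log2 signal of miR-10a (left) and miR-10b (right) on each array, for the brighter probe (top) and the dimmer probe (bottom), by group from uninjured to day 28; points are arrays, coloured by slide, and bars are mean ± SD. The brighter miR-10a probe is highest at day 14 and its dimmer probe at day 7, and 1 uninjured artery stands apart for miR-10b by both probes.

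Day 14 against uninjured asks what had changed during neointima formation, and both groups lay on slide 2. Both members rose. mmu-miR-10a was higher by log2 1.07 ± 0.18 (SE, n = 3 in each group), or 2.10-fold (adjusted p = 0.000437), and mmu-miR-10b by 1.02 ± 0.23 (SE), or 2.03-fold (adjusted p = 0.00341). In that comparison 39.6% of tested miRNAs were called, 20.6% as higher, and the groups did not overlap for 50.8%. The median difference of all tested miRNAs was 0. The slide block, which called 40.2%, could not change these differences, since both groups lay on the same slide. Its adjusted p was 5.9e-05 for miR-10a and 0.00266 for miR-10b, and within slide 2 alone it was 0.00122 and 0.0299. Without uninjured replicate 3 the difference was 1.14 for miR-10a and 1.33 for miR-10b. With no scaling it was 1.73 and 1.69, against a median over all tested miRNAs of 0.52. When only these 2 groups were fitted, the miR-10b call was lost (adjusted p = 0.0547).

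Day 28 against uninjured asks the same of the last time point. Both members were higher again. miR-10a was higher by log2 0.69 ± 0.17 (SE, n = 4 against 3), or 1.62-fold (adjusted p = 0.0088), and miR-10b by 0.94 ± 0.22 (SE), or 1.92-fold (adjusted p = 0.00659), where 26.2% of tested miRNAs were called, 16.8% as higher, and the groups did not overlap for 32.1%. Under the slide block, which called 17.1%, the differences were 0.97 (adjusted p = 0.000621) and 1.15 (adjusted p = 0.00564), and within slide 2 they had these same sizes, with an adjusted p of 0.00425 for miR-10a and 0.0532 for miR-10b. For both members the 2 day 28 arteries on slide 1 were lower than the 2 on slide 2. The miR-10a call ended when arrays were scaled to the median (0.42, adjusted p = 0.115), by quantiles (0.43, adjusted p = 0.12) or to all mouse probes (0.63, adjusted p = 0.0615), and in the authors' value table (0.48, adjusted p = 0.0557). Without uninjured replicate 3 the differences were 0.77 for miR-10a and 1.25 for miR-10b, and without day 28 replicate 2 they were 0.75 (adjusted p = 0.0122) and 0.98 (adjusted p = 0.0117). With no scaling the differences were 1.33 for miR-10a and 1.58 for miR-10b, against a median over all tested miRNAs of 0.63. When only these 2 groups were fitted, both calls were lost (adjusted p = 0.0749 and 0.0742).

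At day 7 miR-10a had risen, and miR-10b did not pass the test. miR-10a exceeded uninjured arteries by log2 0.70 ± 0.18 (SE, n = 3 in each group), or 1.62-fold (adjusted p = 0.00586), where 50.2% of tested miRNAs were called, 27.7% as higher, and the groups did not overlap for 61.1%. The difference for miR-10b was 0.20 ± 0.23 (SE, 95% interval -0.30 to 0.69, adjusted p = 0.515). The slide block, which called 28.7%, gave 1.25 (adjusted p = 0.0011) and 0.62 (adjusted p = 0.215). Without uninjured replicate 3 miR-10a differed by 0.77 (adjusted p = 0.00709) and miR-10b by 0.51 (adjusted p = 0.0287), which is past the threshold. The miR-10a call ended with quantile scaling (0.50, adjusted p = 0.0566) and with scaling to all mouse probes (0.55, adjusted p = 0.0691). With no scaling the miR-10a difference was 1.66, against a median over all tested miRNAs of 0.86.

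At day 1, neither member passed the limma test after adjustment, and 1 of the 2, miR-10a, did at an unadjusted p under 0.05. The difference was 0.41 ± 0.18 for miR-10a (SE, 95% interval 0.01 to 0.80, adjusted p = 0.109) and 0.08 ± 0.23 for miR-10b (SE, 95% interval -0.42 to 0.57, adjusted p = 0.835), where 32.4% of tested miRNAs were called, 19.6% as higher. Without uninjured replicate 3 the differences were 0.48 (adjusted p = 0.085) and 0.39 (adjusted p = 0.102). For miR-10a the day 1 and uninjured arteries did not overlap, as for 47% of tested miRNAs. Under the slide block, which called 9.97%, miR-10a passed (0.96, adjusted p = 0.0144) and miR-10b did not (0.50, adjusted p = 0.402). The direction of both depended on the scaling at this day. The median of all tested miRNAs was 0.24 with the scaling used and -0.34 with scaling to the median, where miR-10a differed by -0.25 and miR-10b by -0.58. Relative to that median miR-10a lay above and miR-10b below under either scaling.

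**Figure D2:**
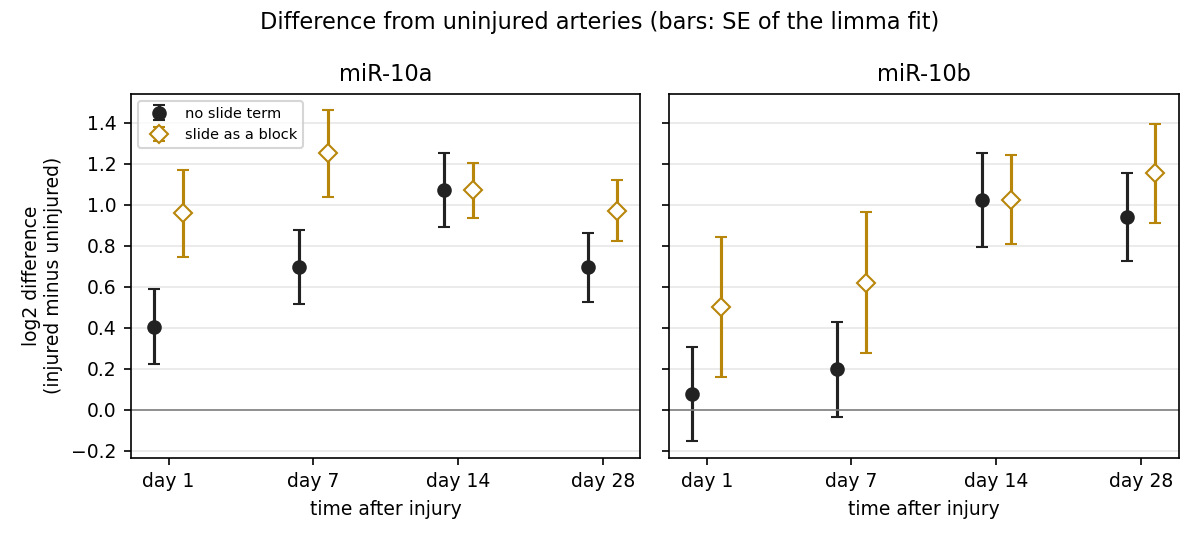
Log2 difference of each day from uninjured arteries for miR-10a (left) and miR-10b (right), against time after injury; bars are the SE of the limma fit, filled points the fit without a slide term and open points the fit with slide as a block. At day 14 both members lie at about 1, with the fits equal by design since day 14 and uninjured arrays share a slide. The fits are farthest apart at day 1 and day 7.

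Between days, both members were higher at day 14 than at day 1, and miR-10b also at day 28 than at day 1 or day 7 and at day 14 than at day 7. All 6 pairs of days were compared. Day 14 exceeded day 1 by 0.67 ± 0.18 for miR-10a (SE, n = 3 in each group, adjusted p = 0.00996) and by 0.95 ± 0.23 for miR-10b (adjusted p = 0.00467), where 39.9% of tested miRNAs were called, 17.4% as higher, and the median of all was -0.24. The arteries did not overlap for either member, as for 49.5% of tested miRNAs. These groups lie on different slides, and under the slide block, which called 13.7%, the differences were 0.11 (adjusted p = 0.802) and 0.52 (adjusted p = 0.311), so neither call held. The miR-10a call was also lost by its dimmer probe (0.39, adjusted p = 0.0509) and with no scaling (1.08, adjusted p = 0.104).

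For miR-10b day 28 exceeded day 1 by 0.87 ± 0.22 (SE, n = 4 against 3, adjusted p = 0.00825), where 34% of tested miRNAs were called, 17.1% as higher. Day 14 exceeded day 7 by 0.83 ± 0.23 (adjusted p = 0.0363, with 10.3% of miRNAs called and 4.05% as higher), and day 28 exceeded day 7 by 0.75 ± 0.22 (adjusted p = 0.0156, with 34% called and 17.4% as higher). In each of these 3 comparisons the arteries did not overlap, as for 37.4%, 36.1% and 42.7% of tested miRNAs. Under the slide block the differences were 0.65 (adjusted p = 0.0702, with 20.2% called), 0.40 (adjusted p = 0.838) and 0.53 (adjusted p = 0.134, with 25.2% called), so none of the 3 calls held. For day 14 over day 7, which lie on different slides, that limma fit called 0 of 321 miRNAs (0%), against 33 without the block, with 29 at an unadjusted p under 0.05. Within slide 1, day 28 exceeded day 1 by 0.65 (adjusted p = 0.0144) and day 7 by 0.53 (adjusted p = 0.0379).

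The miR-10b call for day 14 over day 7 was also lost when any of the 6 arrays of these groups or day 1 replicate 2 was left out, with differences of 0.71 to 0.91 and adjusted p up to 0.168. It was lost by the dimmer probe too (0.47, adjusted p = 0.161). The call for day 28 over day 7 was lost without day 7 replicate 2 (0.69, adjusted p = 0.0647) and by the dimmer probe (0.44, adjusted p = 0.0991). The comparisons of day 28 with day 1 and day 7 and of day 14 with day 1 were chosen after the levels were seen.

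For miR-10a the other 5 pairs of days did not pass. Day 7 differed from day 1 by 0.29 (adjusted p = 0.201, with 43.3% of miRNAs called), day 14 from day 7 by 0.37 (adjusted p = 0.212) and day 28 from day 14 by -0.38 (adjusted p = 0.184, with 15.9% called). Day 28 differed from day 1 by 0.29 (adjusted p = 0.187) and from day 7 by -0.0025 (95% interval -0.37 to 0.36). miR-10b at day 7 differed from day 1 by 0.12 (adjusted p = 0.692), and at day 28 from day 14 by -0.08 (95% interval -0.55 to 0.38, adjusted p = 0.859). From low to high without a slide term, the order of miR-10a levels was uninjured, day 1, day 28, day 7 and day 14. No neighbours in it differed past the threshold. Under the slide block miR-10a at day 14 differed from day 7 by -0.18 (adjusted p = 0.853), so this order depended on the fit. The order of miR-10b without a slide term was uninjured, day 1, day 7, day 28 and day 14. Of its neighbours only day 7 and day 28 differed past the threshold, a call that did not hold under the slide block.

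The difference between the members on the same array, log2 miR-10a minus log2 miR-10b, does not depend on a scaling by 1 factor per array. Its level carries the brightness of the probes, so only its changes are compared. It was -0.39, -0.47 and -1.14 in uninjured arteries, -0.51, -0.34 and -0.17 at day 1, -0.01, -0.20 and -0.29 at day 7, and -0.53, -0.79 and -0.54 at day 14. At day 28 it was -1.002, -0.96, -0.74 and -0.96. Its mean was -0.91 at day 28, against -0.34 at day 1 and -0.17 at day 7. The uninjured arteries spanned day 1 to beyond day 28.

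miR-10a was thus lower relative to miR-10b at day 28 than at day 7 or day 1. Compared with day 7 the relative difference was -0.75 ± 0.22 (SE, n = 4 against 3, adjusted p = 0.0147), or 1.68-fold lower, and compared with day 1 it was -0.58 ± 0.22 (SE, adjusted p = 0.0312), or 1.49-fold lower. The tests come from limma on the differences of 320 miRNAs from miR-10b, of which 40.3% and 66.9% were called. miR-10b itself was higher at day 28 by 0.75 than at day 7 and by 0.87 than at day 1. That change enters all 320 differences, so a call here is not particular to miR-10a. The slide block gave -0.81 (adjusted p = 0.0353) and -0.64 (adjusted p = 0.0632), and within slide 1 they were -0.81 (adjusted p = 0.0102) and -0.64 (adjusted p = 0.0156). By the dimmer probes they were -0.74 (adjusted p = 0.0214) and -0.59 (adjusted p = 0.0318). The call against day 7 was lost without day 7 replicate 1 (-0.67, adjusted p = 0.0726). The call against day 1 was lost without day 1 replicate 2 or 3 or day 28 replicate 1, 2 or 4, where the difference ran from -0.58 to -0.49 with an adjusted p of 0.0543 to 0.106.

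Relative to uninjured arteries, the members did not differ past the threshold on any day. The change of miR-10a relative to that of miR-10b was 0.33 at day 1 (adjusted p = 0.352, with 14.1% called), 0.50 at day 7 (95% interval 0.00 to 1.00, adjusted p = 0.114, with 35.9% called) and 0.05 at day 14 (95% interval -0.45 to 0.55, with 60% called). At day 28 it was -0.25 (95% interval -0.72 to 0.22, with 55.6% called). Without uninjured replicate 3 these values were 0.09 at day 1 (adjusted p = 0.707), 0.26 at day 7 (adjusted p = 0.219), -0.19 at day 14 (adjusted p = 0.3) and -0.49 at day 28 (adjusted p = 0.0139), so that day 28 passed. By the dimmer probes the day 7 value was 0.72 (adjusted p = 0.0233). Day 14 differed from day 7 by -0.45 (adjusted p = 0.12, with 50.6% called), which passed without uninjured replicate 3 (adjusted p = 0.0168). Day 28 differed from day 14 by -0.29 (adjusted p = 0.514, with 2.5% called), day 7 from day 1 by 0.17 (adjusted p = 0.601, with 30% called) and day 14 from day 1 by -0.28 (adjusted p = 0.281, with 73.4% called).

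**Figure D3:**
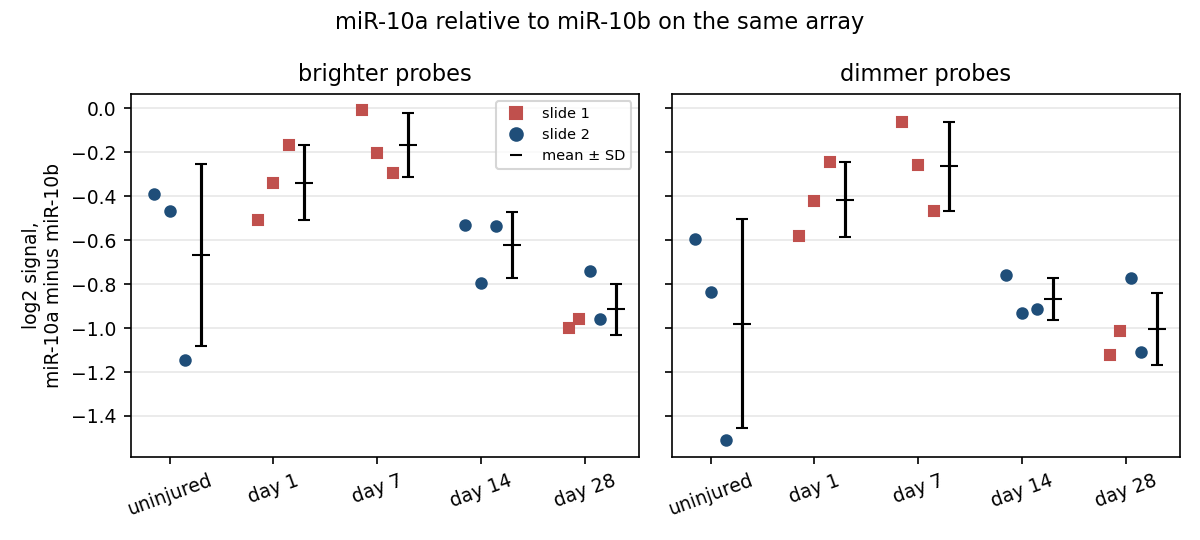
Log2 signal of miR-10a minus that of miR-10b on the same array, by group from uninjured to day 28, for the brighter probes (left) and the dimmer probes (right); points are arrays, coloured by slide, and bars are mean ± SD. By the brighter probes the mean is lowest at day 28, and the uninjured arrays span the widest range.

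The probes of each member gave the same direction against uninjured arteries on each day. For miR-10b they also gave the same order of the groups, and at day 14 nearly the same size, while for miR-10a the order of the days differed. Bright minus dim, miR-10a averaged 1.75 ± 0.06, 1.41 ± 0.03, 1.18 ± 0.04, 1.68 ± 0.02 and 1.47 ± 0.16 (log2, SD) for uninjured, day 1, day 7, day 14 and day 28. For miR-10b it averaged 1.44 ± 0.05, 1.34 ± 0.03, 1.08 ± 0.06, 1.44 ± 0.14 and 1.38 ± 0.16 in the same order. The gap was narrowest at day 7 for both members. By its dimmer probe miR-10a differed from uninjured arteries by 0.75 at day 1 (adjusted p = 0.00187), 1.28 at day 7 (adjusted p = 1.25e-05), 1.14 at day 14 (adjusted p = 6.3e-05) and 0.98 at day 28 (adjusted p = 0.000192), so that day 7, not day 14, was highest. By the dimmer miR-10b probe the differences were 0.18 (adjusted p = 0.508), 0.56 (adjusted p = 0.0356), 1.03 (adjusted p = 0.00138) and 1.00 (adjusted p = 0.00197).

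The miR-99 and miR-100 relatives did not rise above uninjured arteries on any day, but miR-99a and miR-100 were higher at day 28 than at day 1 and day 7. miR-100, cut from a cluster shared with let-7 and miR-125 genes, had levels of 2.39, 2.21 and 2.47 in uninjured arteries, 1.05, 1.16 and 1.00 at day 1, 0.97, 0.86 and 1.15 at day 7, 1.53, 1.87 and 1.60 at day 14, and 1.25, 1.51, 2.09 and 2.03 at day 28. Each injured artery was below each uninjured one, and the day 14 and day 28 arteries were above those of day 1 and day 7. Injured and uninjured arteries did not overlap for 47%, 61.1%, 50.8% and 32.1% of tested miRNAs at day 1, 7, 14 and 28. Against day 1 and day 7 the shares were 49.5% and 36.1% for day 14, and 37.4% and 42.7% for day 28. miR-100 was lower than in uninjured arteries by log2 differences of -1.28, -1.36, -0.69 and -0.64 on days 1, 7, 14 and 28 (adjusted p = 0.000339, 9.07e-05, 0.0157 and 0.0236). The slide block gave -0.61, -0.69, -0.69 and -0.30 (adjusted p = 0.0992, 0.0256, 0.00129 and 0.191). miR-99a, from a like cluster, was lower at day 1 (-1.27, adjusted p = 0.000293) and day 7 (-0.99, adjusted p = 0.000904), and neither call held under the slide block (-0.63 and -0.34). Its differences at day 14 and day 28 were -0.34 and -0.24 (adjusted p = 0.189 and 0.398). miR-99b differed by -0.30, 0.24, -0.08 and 0.09 and did not pass on any of the 4 days. Beside miR-10a and miR-10b, then, 2 of 3 relatives fell at day 1 and day 7 and 1 of 3 at day 14 and day 28. Of all 321 tested miRNAs 12.8%, 22.4%, 19% and 9.35% were lower on these days. The miR-100 call at day 28 was lost without uninjured replicate 3 (-0.58, adjusted p = 0.0769) or day 28 replicate 2 (-0.57, adjusted p = 0.0576), and miR-99b was lower at day 1 without uninjured replicate 3 (-0.46, adjusted p = 0.0478).

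Between days, mmu-miR-99a was higher at day 28 than at day 1 by 1.04 (adjusted p = 0.000992) and than at day 7 by 0.75 (adjusted p = 0.0066). The first call held under the slide block (0.72, adjusted p = 0.00539) and the second did not (0.43, adjusted p = 0.0507). mmu-miR-100 was higher at day 28 by 0.65 (adjusted p = 0.0185) and 0.73 (adjusted p = 0.00936), and neither call held under the block (0.31 and 0.39, adjusted p = 0.145 and 0.0691). Day 14 exceeded day 1 by 0.93 for miR-99a (adjusted p = 0.00195) and 0.59 for miR-100 (adjusted p = 0.0296). Compared with day 7 miR-100 was higher at day 14 by 0.68 (adjusted p = 0.0484), and miR-99a differed by 0.64 without passing (adjusted p = 0.0504). None of these 4 passed under the block. mmu-miR-99b was higher at day 7 than at day 1 (0.54, adjusted p = 0.0184), both on slide 1, and passed for no other pair of days.

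**Figure D4:**
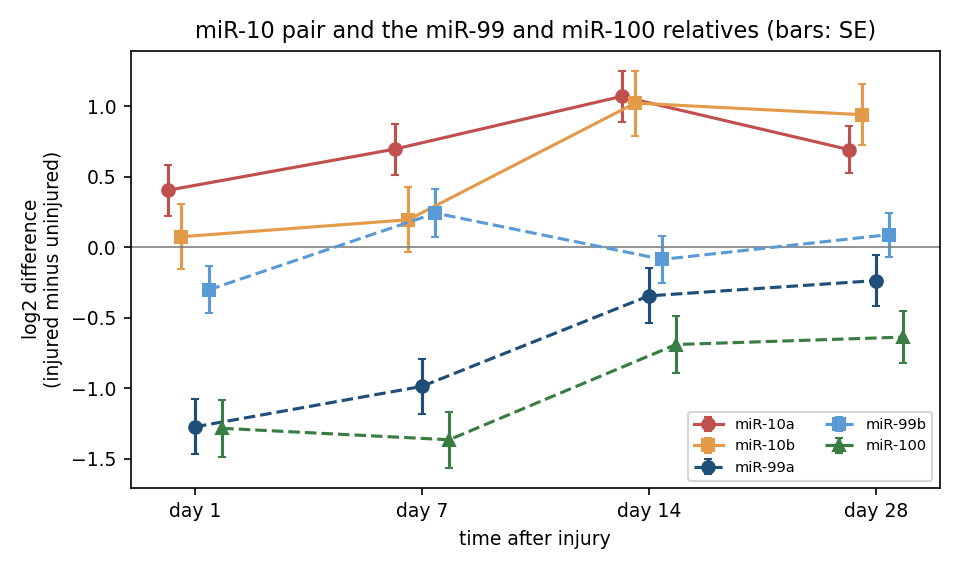
Log2 difference from uninjured arteries at each day after injury for miR-10a and miR-10b (solid lines) and for miR-99a, miR-99b and miR-100 (dashed lines); bars are the SE of the limma fit. The miR-10 members lie above 0 on each day and miR-99a and miR-100 below it, with miR-99b between them except at day 7, where it lies at 0.24, just above miR-10b at 0.20.

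The miRNAs whose levels were most like those of miR-10a over the 16 arrays, among 218 detected on all of them, were miR-425 (Pearson r = 0.892), miR-674* (0.879), miR-155 (0.855), miR-500 (0.840) and miR-532-5p (0.840). miR-10b came at place 11 (0.764). For miR-10b they were miR-500 (0.819), miR-342-3p (0.808), miR-674* (0.783), miR-10a (0.764) and miR-34a (0.761). These coefficients describe arrays that share groups, slides and scaling, and carry no test. Both lists hold miR-500 and miR-674*. miR-155, a miRNA of activated macrophages and lymphocytes, was 9.17-fold higher at day 14 than in uninjured arteries, and miR-34a, a target of p53, 6.89-fold higher, beside the 2.10-fold and 2.03-fold of miR-10a and miR-10b. The least like of the 218 was miR-143, the smooth muscle miRNA, for both miR-10a (-0.890) and miR-10b (-0.729).

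Markers of other cell types moved over the same days. Of 5 leukocyte miRNAs, 4 were higher on each of the 4 days, where 19.6%, 27.7%, 20.6% and 16.8% of all tested miRNAs were higher at day 1, 7, 14 and 28. With slide as a block the counts were 3, 3, 4 and 4, where 8.1%, 16.5%, 21.5% and 13.4% of all were higher. Their summed scaled signal ran from 1.59 to 1.95 in uninjured arteries. In day 1 arteries it ran from 25.6 to 28.2, in day 7 arteries from 13.1 to 17.4, in day 14 arteries from 10.3 to 16.2 and in day 28 arteries from 8.57 to 11.9. The sum was thus highest at day 1, but it adds probes that share no scale, and miR-223 was the brightest of the 5 in each group. By group means miR-223 and both miR-142 strands were highest at day 1, while miR-155 and miR-150 were not. miR-155 averaged -2.97 at day 1, against -0.91, -0.68 and -1.05 at day 7, day 14 and day 28. Of 2 tested smooth muscle miRNAs, miR-143 and miR-145, 0 were lower at day 1 (0 also at an unadjusted p under 0.05) and both at day 7, day 14 and day 28, also under the slide block. Both were also lower at day 1 once uninjured replicate 3 was left out. The shares of all tested miRNAs that were lower with all arrays are those given above for the relatives. They do not cover the fit without that replicate. Their list summed to 3.53 to 6.37 in uninjured arteries, with 2.94 to 5.13 in day 1 arteries, 1.54 to 1.80 in day 7 arteries, 1.05 to 1.1 in day 14 arteries and 1.89 to 2.08 in day 28 arteries. It was lowest at day 14. Of the vessel wall's own markers, miR-143, miR-145 and the endothelial miR-126-3p were well above background on 16 of 16 arrays. The other members of these lists on the array were not, with miR-126-5p well above background on 3 arrays and miR-145* on 0.

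miR-126-3p, the 1 tested member of 2 endothelial miRNAs, passed only at day 7 (0.45, adjusted p = 0.0303), while the slide block also called day 28 (0.60, adjusted p = 0.0188). The endothelial list summed to 9.68 to 10.3 in uninjured arteries, with 7.03 to 9.80 in day 1 arteries, 12.3 to 15.4 in day 7 arteries, 12.2 to 13.8 in day 14 arteries and 11.2 to 15.7 in day 28 arteries. Of 3 erythroid miRNAs limma called 0 on any day, with 1 at an unadjusted p under 0.05 at day 7 and 0 on the other days, and without uninjured replicate 3 it called 2 as lower at day 7 and at day 14. Of 4 striated muscle miRNAs 0, 1, 2 and 3 were lower at day 1, 7, 14 and 28, of 3 tested neuronal miRNAs 0, 3, 3 and 1, and of 3 fat-associated miRNAs 1, 2, 3 and 2. Under the slide block the counts were 0, 0, 2 and 0 for striated muscle, 0, 3, 2 and 0 for neuronal and 0, 1, 3 and 1 for fat-associated miRNAs, where 1.87%, 12.1%, 18.7% and 3.74% of all tested miRNAs were lower. The neuronal counts without uninjured replicate 3 were 0, 3, 1 and 0, the striated muscle counts 0, 1, 1 and 1 and the fat-associated counts 1, 3, 3 and 2. Without day 28 replicate 2 the striated muscle counts were 0, 2, 2 and 2 and the neuronal counts 0, 3, 2 and 1. Day 14 replicate 1 stood apart for the neuronal list, with 0 of 4 members well above background and a sum of 0. The sum was 0.57 and 0.50 on the other day 14 arrays. Neuronal counts without day 14 replicate 1 are not given, so how far the day 14 count rests on it is open. Of 3 tested epithelial miRNAs limma called 0, also at an unadjusted p under 0.05, and the list summed to at most 0.12 on all arrays but day 28 replicate 2, where all 6 of its members were well above background. The fat-associated list summed to 8.37 to 11.5 in uninjured arteries, with 3.57 to 6.71 in day 1 arteries, 2.07 to 2.77 in day 7 arteries, 2.47 to 2.70 in day 14 arteries and 2.88 to 5.05 in day 28 arteries. The part of these cell types in the miR-10a and miR-10b differences was not tested.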

How the data were processed

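The deposited scanner files hold the intensity of every spot, processed and background-handled by the authors in Agilent Feature Extraction 9.5.1.1, per the file headers. How that background was estimated is not given in the sources used here. The deposited value table holds 610 of 611 mouse miRNAs on a linear intensity scale. Its values matched the scanner files' total gene signal to 0.1% in 100% of cases, and its column medians of 3.81 to 16.6 show no common centre.

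Processed signals of unmarked spots were averaged per probe, divided by the array's 75th percentile over 395 probes detected on all arrays, floored at 0.0181 and taken to log2. A probe was well above background where at least 50% of its spots were. The brightest probe stood for a miRNA. Tests covered the 321 miRNAs that all arrays of some group showed well above background. Groups were compared with limma 3.58.1 (R 4.3.3, with the package data.table, version 1.17.8) in 1 model over the 5 groups without covariates, with Benjamini-Hochberg adjustment. For the relative change, miR-10b was subtracted from every other miRNA on the array before the fit. An exact permutation test of 3 against 3 cannot give a two-sided p below 0.1, and none was used. The fits were tested on simulated data.

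Replicate numbers were not used as pairs: deviations of 30 same-numbered pairs correlated with a median r of -0.06 and a highest r of 0.56, and 8 exceeded 0.1. Of 72 differently numbered pairs 25 exceeded 0.1, with a median r of 0.004. Such correlations cannot show that the samples were unpaired. Named were the members and their other strands, the Hox cluster and the miR-99 and miR-100 lists, the 5 miRNAs most like each member, and up to 2 members of each cell marker list per comparison. Further marker list members were named where the members of a list differed. Day 28 against day 1 and day 7, day 14 against day 1, quantile scaling of the relative change, the marker lists without single arrays and the probe gaps over other miRNAs were added after the data were seen. The members and all lists were chosen with earlier results of these data known. Alternatives changed scaling, background, filter, floor, probe choice, slide, replicate number, weights and arrays included. Sequences are RefSeq's. The number of arrays limits the precision.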

Additional observations from a re-analysis of the deposited data

Results flagged for a closer look

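At day 28 the difference of miR-10a from miR-10b on the same array was -0.74 on replicate 3, against -1.002 to -0.96 on the other 3. The gap to the nearest array was 0.830 of the group's range, just above the critical value of Dixon's test. Chance alone picks out about 1 in 20 groups in this way.

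Some differences from uninjured arteries themselves differed between days by limma. miR-10b was 0.83 higher at day 14 than at day 7, 0.87 higher at day 28 than at day 1 and 0.75 higher at day 28 than at day 7 (log2). At day 14 miR-10a was 0.67 and miR-10b 0.95 higher than at day 1. With slide as a block none of these 5 passed the threshold. miR-10a relative to miR-10b differed by -0.58 between day 28 and day 1 and by -0.75 between day 28 and day 7, and only the second passed with slide as a block.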

How the results depend on the processing

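Of 1086 pairs of a result with an alternative, 979 kept direction and side of the threshold, 56 lost the call, 24 gained one and 27 changed sign, none of the last while past the threshold. The day 14 rise of miR-10a was called under each alternative run, and that of miR-10b under all but the fit of only its 2 groups (1.02). For the others the cause was not tested. All values are log2 differences.

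Scaling to all mouse probes gave miR-10a -0.23 at day 1, 0.55 at day 7 and 0.63 at day 28 against uninjured, 0.78 for day 7 over day 1, 0.86 for day 28 over day 1 and 0.085 for day 28 over day 7. It gave miR-10b -0.56 at day 1, 0.61 for day 7 over day 1 and 0.90 for day 14 over day 7. Scaling to the median gave miR-10a -0.25 at day 1, 0.42 at day 28, 0.78 for day 7 over day 1 and 0.67 for day 28 over day 1. It gave miR-10b -0.58 at day 1, 0.61 for day 7 over day 1 and 0.74 for day 14 over day 7. Quantiles gave miR-10a 0.50 at day 7 and 0.43 at day 28, miR-10b -0.080 at day 1, and miR-10a relative to miR-10b -0.10 at day 14 and -0.42 for day 28 over day 1. No scaling gave miR-10a 1.08 for day 14 over day 1, and miR-10b 0.52 for day 14 over day 7, 1.26 for day 28 over day 1 and 0.42 for day 28 over day 7.

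Slide as a block gave miR-10a 0.96 at day 1, -0.18 for day 14 over day 7 and 0.11 for day 14 over day 1. It gave miR-10b 0.40 for day 14 over day 7, 0.52 for day 14 over day 1, 0.13 for day 28 over day 14, 0.65 for day 28 over day 1 and 0.53 for day 28 over day 7, and miR-10a relative to miR-10b -0.64 for day 28 over day 1. A random slide block gave miR-10b 0.79 for day 14 over day 7, and slide 2 alone gave it 1.15 at day 28 and 0.13 for day 28 over day 14.

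Samples shared only a number across groups, and 4 of 16 arrays correlated best with their own number. The replicate block left miR-10b at 0.83 for day 14 over day 7 and 0.68 for day 28 over day 7, and the relative change at -0.56 for day 28 over day 1 and -0.73 for day 28 over day 7, each no longer past the threshold. The replicate block with slide gave miR-10a -0.25 for day 14 over day 7 and 0.047 for day 14 over day 1. It gave miR-10b 1.04 at day 28, 0.58 for day 14 over day 7, 0.70 for day 14 over day 1, 0.016 for day 28 over day 14, 0.71 for day 28 over day 1 and 0.59 for day 28 over day 7, and the relative change 0.014 at day 28, -0.68 for day 28 over day 1 and -0.86 for day 28 over day 7.

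The dimmer probes gave miR-10a 0.75 at day 1, 0.53 for day 7 over day 1, -0.14 for day 14 over day 7 and 0.39 for day 14 over day 1, miR-10b 0.56 at day 7, 0.47 for day 14 over day 7 and 0.44 for day 28 over day 7, and the relative change 0.72 at day 7. The mean over probes gave miR-10a 0.58 at day 1 and 0.41 for day 7 over day 1, miR-10b 0.65 for day 14 over day 7, and the relative change 0.61 at day 7. Array weights gave miR-10a 0.53 at day 1, 0.46 for day 14 over day 7, 0.42 for day 28 over day 1 and 0.22 for day 28 over day 7, miR-10b 0.40 at day 1 and 0.47 at day 7, and the relative change -0.24 at day 14, -0.46 at day 28 and -0.47 for day 14 over day 7. The authors' value table gave miR-10a 0.48 at day 28 and miR-10b 0.84 for day 14 over day 7. Without the detection filter miR-10b kept 0.83 for day 14 over day 7 but not the call. Only the groups compared gave miR-10a 0.69 and miR-10b 0.94 at day 28. Normexp gave miR-10a 0.00014 for day 28 over day 7 and the relative change -0.019 at day 14, and with outlier spots kept miR-10a differed by 0.0054 for day 28 over day 7.

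Leaving out 1 array at a time gave miR-10a -0.13 to 0.13 for day 28 over day 7. It gave miR-10b -0.10 to 0.39 at day 1, 0.016 to 0.51 at day 7, 0.71 to 0.91 for day 14 over day 7, -0.16 to 0.040 for day 28 over day 14 and 0.67 to 0.85 for day 28 over day 7. The relative change was -0.19 to 0.19 at day 14, -0.49 to -0.11 at day 28, -0.52 to -0.37 for day 14 over day 7, -0.66 to -0.49 for day 28 over day 1 and -0.81 to -0.67 for day 28 over day 7.

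Counts of called miRNAs moved by over 1.5 times in these cases. For day 1 against uninjured (104), no scaling gave 36, normexp 47, the slide block 32, with replicate block 10, weights 199, and leaving out uninjured replicate 2 gave 69. At day 7 (161) the slide block gave 92 and both blocks 45. At day 14 (127) no scaling gave 72. At day 28 (84) the slide block gave 55, slide 2 alone 55, both blocks 21 and only the groups compared 44. For day 7 over day 1 (139) no scaling gave 79, and for day 14 over day 1 (128) it gave 53, the slide block 44 and both blocks 13. For day 14 over day 7 (33) counts ran from 0 (no scaling and slide block) to 130 (weights), for day 28 over day 14 (51) from 0 to 33, for day 28 over day 1 (109) from 20 (no scaling) to 173 (weights), and for day 28 over day 7 (109) from 24 (no scaling) to 71.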

Other observations

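The narrowing of the gap between the brighter and the dimmer probe at day 7 was not limited to the miR-10 members. Among 136 miRNAs with 2 probes detected on all arrays, 93 had a narrower gap at day 7 than in uninjured arteries, with a median change of -0.08 (quartiles -0.36 and 0.04). The change was -0.58 for miR-10a, with 23 miRNAs below it, and -0.36 for miR-10b, with 34 below it. At day 14 the changes were -0.07 for miR-10a and 0.00 for miR-10b, where the median was -0.03.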
